A study of Mus musculus with 12 samples.

Results

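Interferon response genes were followed in RNA from the hippocampus of aged mice given pyrroloquinoline quinone (PQQ), a redox cofactor taken with food. The group held 39 genes that were chosen by name as genes induced by interferon. Rows under these names were found for 37 of them among the 27833 genes of the table, and Ddx58 and Mx1 had none. All mice were C57BL/6J males aged 20 months without a transgene or deletion, and they were gavaged daily for 14 days. The 3 CON libraries came from mice given saline, the 5 PQQ-L libraries from mice given PQQ at 5 mg/kg/day, and the 4 PQQ-H libraries from mice given PQQ at 10 mg/kg/day. The labels number the libraries within a group but do not say which mouse or how many mice each one holds, so p-values measure the spread between libraries. Males of 1 strain and 1 age were sequenced and no young mice were included, so no effect of age on these genes can be read here.

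Interferons are secreted proteins that cells release on sensing viral or displaced nucleic acids. They bind receptors on the cell surface, where JAK kinases phosphorylate STAT proteins. Complexes of STAT proteins with IRF9 then bind the interferon-stimulated response element (ISRE), and STAT dimers bind the gamma-activated site (GAS), upstream of the genes that block viral entry, translation and replication. In the brain, microglia, endothelium and the choroid plexus, the epithelium that makes cerebrospinal fluid, are known for such responses, and a rise of these genes with age is known from choroid plexus.

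Interferon motifs were common in the promoters of the group. Promoter sequences from RefSeq (GRCm38.p6, 250 bases before and 50 after each start) matched 29 of the 37 members. The ISRE core was searched as GAAA, any 2 bases and GAAA, and the GAS as TTC, any 3 bases and GAA, on both strands, and matches of the motifs may overlap. The ISRE core was found in 20 of 29 members (69.0%) and in 3.99% of all 27025 genes with a promoter. The GAS was found in 12 of 29 members (41.4%) and in 9.55% of all genes. Both motifs were found in 9 members (31.0%) and in 0.614% of all genes, while 6 members had neither, among them Irf7 and Oasl2. A match describes the letters in this window and not a bound site, and the members were chosen as interferon-induced genes. The windows below are shown because they belong to the members with the smallest p-values or to Isg15 and the Tgtp pair as further examples, and capitals mark the ISRE core on either strand. Each is read 5′ to 3′ along the gene, within 250 bases before the start or 50 bases after it.
Bst2, chr8:71537565-71537624, minus strand: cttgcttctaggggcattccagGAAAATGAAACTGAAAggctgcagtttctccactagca
Irgm1, chr11:48871421-48871480, minus strand: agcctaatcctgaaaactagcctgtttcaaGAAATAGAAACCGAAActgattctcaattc
Gbp3, chr3:142559977-142560036, plus strand: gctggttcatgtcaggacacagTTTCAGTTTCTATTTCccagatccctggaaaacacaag
Isg15, chr4:156200856-156200915, minus strand: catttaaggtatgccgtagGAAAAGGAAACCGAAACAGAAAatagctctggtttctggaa
Ifitm2, chr7:140955973-140956032, minus strand: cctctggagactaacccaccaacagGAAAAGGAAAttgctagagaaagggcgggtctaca
Ifitm3, chr7:141010715-141010744, minus strand: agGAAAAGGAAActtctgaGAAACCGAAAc
Eif2ak2, chr17:78882535-78882564, minus strand: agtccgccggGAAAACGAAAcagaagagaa
Tgtp1, chr11:48992289-48992348, minus strand: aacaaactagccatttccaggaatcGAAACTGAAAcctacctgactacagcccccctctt
Tgtp2, chr11:49064248-49064307, minus strand: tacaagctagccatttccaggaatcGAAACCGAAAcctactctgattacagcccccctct

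In Bst2, Irgm1 and Gbp3, 2 ISRE cores overlapped in 1 run, and in Isg15 3 of them did. In Bst2, Tgtp1 and Tgtp2 a GAS lay just before the ISRE core, sharing bases with it in Bst2. In Ifitm3 a GAS lay between the ISRE cores and shared bases with the later core. The ISRE cores of Ifitm3 and Eif2ak2 lay after the annotated start.

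**Figure D1:**
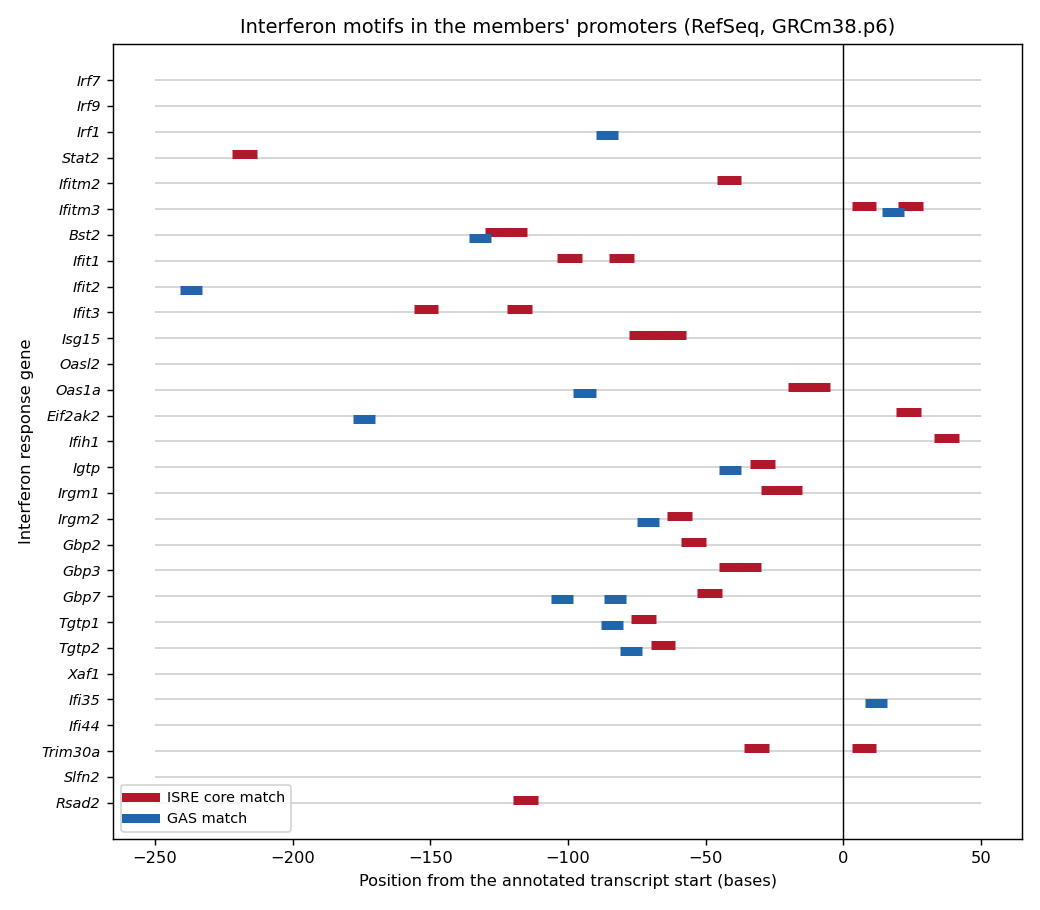
Matches to the ISRE core (red) and the GAS (blue) in the promoters of 29 interferon response genes, by distance from the annotated transcript start in bases. Of the 29 genes, 20 hold an ISRE core, 12 hold a GAS and 6 hold neither.

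The libraries differed in tissue content, which bears on every comparison here. FPKM is fragments counted on a gene, scaled to its length and to the library total, so levels can be compared between genes, and the reads behind it summed to 29654553 to 38179496 per library. The summed FPKM of 20 choroid plexus markers was 1818 to 6026 in CON, 106 to 208 in PQQ-L and 80.9 to 99.4 in PQQ-H, and the lowest CON library was 8.76-fold above the highest PQQ library. Of these markers, at most 2 were at 0 in a PQQ-L library and at most 6 in a PQQ-H library. Choroid plexus content and treatment therefore cannot be told apart in CON against either dose. A second difference crossed the groups. CON 1, CON 3, PQQ-H 1 and PQQ-H 2 held 1458 to 3762 FPKM of 16 striatal neuron markers and 87.1 to 157 FPKM of 17 hippocampal neuron markers. The other 8 libraries held 42.5 to 195 and 244 to 582 FPKM of the same lists, so hippocampal neuron markers were present in every library but lowest in those 4. Markers of thalamic neurons also differed, with sums of 176, 147 and 31.9 FPKM in CON 1 to 3 and 23.5 to 109 FPKM in PQQ.

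Most interferon response genes were lower with PQQ than in CON, and few passed the test. On log2(FPKM + 0.1), a scale that understates changes of low genes, 28 of the 37 members had a mean FPKM of at least 0.5 and were tested with limma. That mean ran over all 12 libraries, so high CON values can carry a gene past it. Iigp1 passed with group means of 0.878 FPKM in CON, 0.550 in PQQ-L and 0.434 in PQQ-H. In PQQ-L vs. CON, 27 of 28 were lower, with a median log2 fold change (log2FC) of -0.78 against -0.03 over the 13796 genes tested. In PQQ-H vs. CON, 28 of 28 were lower, with a median log2FC of -0.78 against -0.03. The comparisons share the CON libraries and are not independent of each other. Genes past both a |log2FC| of 1 and a Benjamini-Hochberg adjusted p of 0.05 are named called here. In PQQ-L vs. CON, 1 member (Bst2) was called, where 0.471% of all tested genes were called lower. In PQQ-H vs. CON, 4 members (Bst2, Irf7, Ifitm3 and Oasl2) were called, where 0.819% of all tested genes were. Adjusted p alone was below 0.05 for 1 member in PQQ-L (0.587% of all genes, lower) and for 6 in PQQ-H (1.08% of all genes), the further ones being Eif2ak2 and Irgm1. At an unadjusted p below 0.05, 19 members were lower and 0 higher in PQQ-L, where 11.6% of all genes were lower and 8.92% higher. In PQQ-H these were 20 and 0 members, where 7.88% of all genes were lower and 1.85% higher. Irf7, Ifitm3, Rtp4, Usp18, Tgtp1 and Tgtp2 are among genes that the study itself picked from these libraries, so their direction is not independent evidence.

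**Figure D2:**
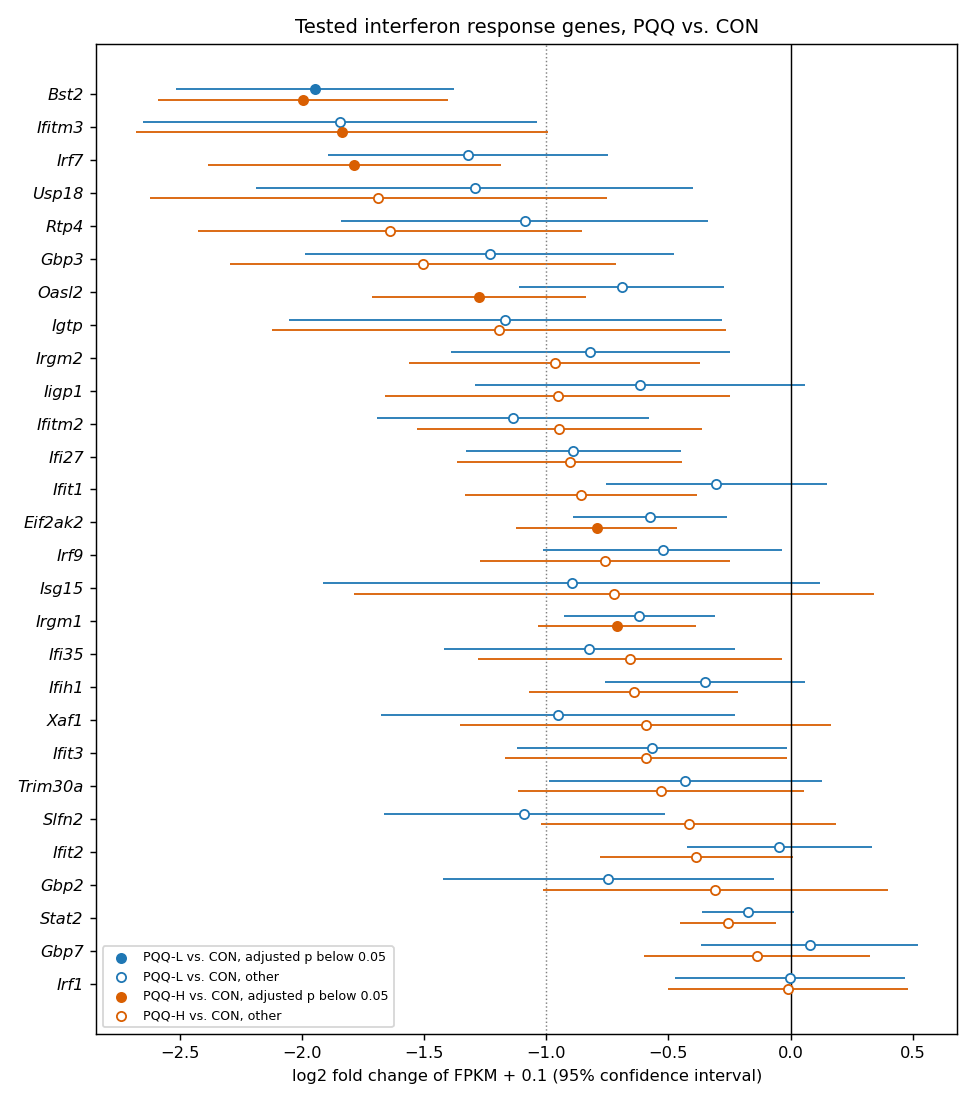
log2 fold changes of FPKM + 0.1 with 95% confidence intervals for the 28 tested interferon response genes, PQQ-L (blue) and PQQ-H (orange) vs. CON, where filled points have an adjusted p below 0.05. All points but Gbp7 in PQQ-L lie below 0, and Bst2 alone is filled at both doses.

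The CON libraries set the size of these differences and did not resemble each other. Of 37 members, 33 were highest in CON 1 or CON 3, and CON 2 was the lowest CON library for 30. CON 2 also held the least choroid plexus marker RNA of the CON libraries, and its striatal markers were low. Over all members, FPKM summed to 233, 141 and 292 in CON 1 to 3, to 88.8 to 105 in PQQ-L and to 78.2 to 128 in PQQ-H. Thus each CON library was above each PQQ library in the sum, CON 2 by the least. The sum leans on a few abundant genes and does not describe most members. Ifi27, Ifitm3 and Bst2 measured 43.2, 29.3 and 12.4 FPKM in CON 2. They measured 30.7, 30.2 and 6.49 FPKM in PQQ-H 2, the PQQ library with the highest sum. For 8 of 28 tested members CON 2 was above all 9 PQQ libraries, as it was for 12.3% of all genes tested. Every CON library was above every PQQ-L library for 15 of 28 members (7.66% of all genes) and above every PQQ-H library for 11 of 28 (5.72% of all genes). Without CON 2, 15 members were called in PQQ-L and 10 in PQQ-H, where 3.12% and 0.986% of all genes were called lower, against 0.471% and 0.819% with it. Without CON 1 the counts were 0 and 3 (0.167% and 0.464% of all genes called lower). Without CON 3 they were 1 and 1 (0.261% and 0.449% of all genes). Without PQQ-H 2, which was the highest PQQ-H library for 23 of 37 members, 3 and 7 members were called (0.536% and 1.11% of all genes). Without PQQ-H 3 the count in PQQ-L was 3 (0.565% of all genes). In bulk RNA, fewer cells that express a gene and less RNA per cell cannot be told apart.

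**Figure D3:**
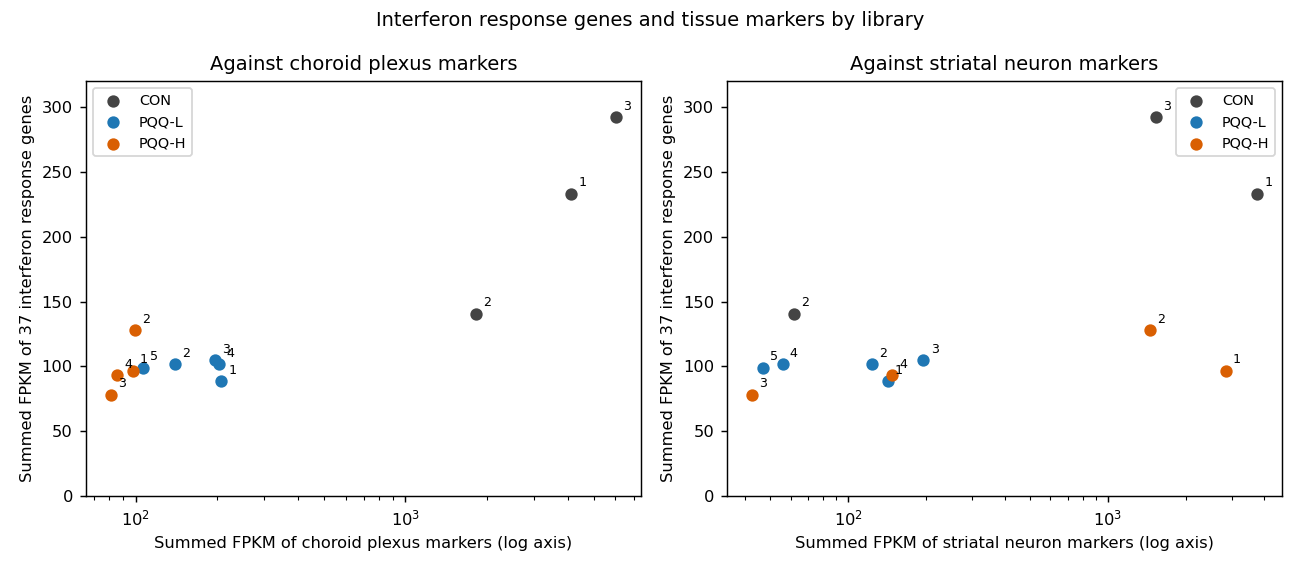
Summed FPKM of 37 interferon response genes (vertical axis) against the summed FPKM of choroid plexus markers (left, log axis) and striatal neuron markers (right, log axis), 1 point per library with its replicate number. The CON libraries sit at 141 to 292 and at 1818 or more FPKM of choroid plexus markers, while the PQQ libraries sit at 78.2 to 128 and at 208 or less. Abundant genes such as Ifi27 and Ifitm3 weigh most in the sum.

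The choroid plexus markers were lower in the same libraries as the members. Of 19 tested choroid plexus markers, 14 were called lower in PQQ-L and 15 in PQQ-H. With their score as a covariate, 0 members were called at either dose. The median log2FC of the members turned to 0.46 and 0.66, against 0.06 and 0.05 over all genes. Of the members, 19 of 28 changed sign in PQQ-L and 21 of 28 in PQQ-H. The marker sums did not overlap between CON and PQQ, so this fit cannot tell choroid plexus content from treatment. The SE of Bst2 rose from 0.26 to 0.73 in PQQ-L and from 0.27 to 0.93 in PQQ-H. In that fit 0 members passed an unadjusted p of 0.05, and 0 of all genes were called. Libraries high in striatal markers numbered 4, a subset chosen after the data were seen. Among them 27 of 28 members were lower in PQQ-H 1 and 2 than in CON 1 and 3. Their median log2FC was -0.80, against -0.01 over all genes. Bst2 was called there, where 0.254% of all genes were called lower. Among the other 8 libraries, CON 2 was the only CON library. There 22 of 28 members were lower in PQQ-L and 26 of 28 in PQQ-H. The medians were -0.21 and -0.55, against -0.03 and -0.05 over all genes. As 1 library gives no spread for CON, no p-values vs. CON are given from these 8. No other marker list had every CON library above all 9 PQQ libraries. Meninges and fibroblast markers (49.5 to 99.8 FPKM in CON) and ependyma markers (45.4 to 65.0) did lie above PQQ-H (26.2 to 34.7 and 11.6 to 31.5), and border macrophage markers (5.31 to 9.51) lay above PQQ-L (3.22 to 4.34). Microglia markers summed to 312 to 535 FPKM in CON and 318 to 578 in PQQ, endothelium markers to 271 to 394 and 229 to 385, and markers of T, B and NK cells and neutrophils to 1.84 to 29.9 and 1.30 to 22.6. With the endothelium score as a covariate 2 and 4 members were called in PQQ-L and PQQ-H (0.333% and 0.580% of all genes, lower). With the meninges and fibroblast score 1 and 0 were (0.304% and 0.0580% of all genes). With the striatal score 1 and 7 members were called (0.283% and 0.971% of all genes). The part of the remaining lists in the members' levels was not tested.

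Among the transcription factors, Irf7 fell in PQQ-H. IRF7, itself induced by interferon, drives the transcription of type I interferons and of many interferon-induced genes. Irf7 measured 3.78, 2.62 and 4.82 FPKM in CON 1 to 3, 1.39, 1.22, 1.75, 1.47 and 1.20 FPKM in PQQ-L 1 to 5, and 1.19, 1.47, 0.602 and 0.862 FPKM in PQQ-H 1 to 4. All 3 CON libraries were above all 9 PQQ libraries, on 41 to 312 reads per library. The log2FC was -1.32 (SE 0.26, adjusted p = 0.0529) in PQQ-L and -1.79 (SE 0.27, adjusted p = 0.00869) in PQQ-H with limma. Without CON 3 the call in PQQ-H was lost (log2FC -1.59, adjusted p = 0.0592), and the adjusted p was below 0.05 in 25 of 33 alternatives, ranging from 0.000121 to 1. Irf9, the DNA-binding partner of STAT proteins, measured 5.03 ± 1.84 FPKM in CON (SD, n = 3), 3.34 ± 0.505 in PQQ-L (n = 5) and 2.84 ± 0.551 in PQQ-H (n = 4), and its groups overlapped. Stat2 covered 4.74 to 5.06 FPKM in CON, 3.82 to 4.73 in PQQ-L and 3.94 to 4.26 in PQQ-H, so the CON libraries were higher by a small margin. Irf1, which responds most to interferon gamma, measured 2.15 ± 0.544, 2.16 ± 0.507 and 2.11 ± 0.322 FPKM in CON, PQQ-L and PQQ-H. Irf9, Stat2 and Irf1 did not pass the adjusted test in either dose.

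Of the membrane restriction factors 3 of 3 were lower at both doses, and Bst2 passed the test at both. BST2, or tetherin, holds budding virus particles at the cell surface. Bst2 measured 24.8, 12.4 and 35.6 FPKM in CON 1 to 3, 5.88, 6.19, 5.19, 6.09 and 5.19 FPKM in PQQ-L 1 to 5, and 5.28, 6.49, 4.57 and 5.83 FPKM in PQQ-H 1 to 4. The PQQ libraries lay close together and far below CON 2, the lowest of the CON libraries, on 130 to 964 reads. The log2FC was -1.95 (SE 0.26, adjusted p = 0.00533) in PQQ-L and -2.0 (SE 0.27, adjusted p = 0.00414) in PQQ-H with limma, or 3.86-fold and 3.99-fold lower. Adjusted p was below 0.05 in 28 of 32 alternatives in PQQ-L (7.93e-06 to 1) and in 28 of 33 in PQQ-H (3.03e-05 to 1). The call in PQQ-L was lost without CON 1 (log2FC -1.87, adjusted p = 0.0511). With the choroid plexus score as a covariate, its log2FC came to -0.41 (SE 0.73) for PQQ-L and 0.00 (SE 0.93) for PQQ-H. Among the 4 libraries high in striatal markers (CON 1 and 3, PQQ-H 1 and 2) it was -2.32 (adjusted p = 0.0294 with limma). Among the other 8, where CON 2 was the only CON library, it came to -1.11 for PQQ-L and -1.25 for PQQ-H.

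IFITM2 and IFITM3 sit in membranes and hinder the fusion of enveloped viruses, and the closely related genes can share reads. Ifitm3 measured 59.3, 29.3 and 76.7 FPKM in CON 1 to 3, 14.2, 12.0, 15.6, 15.2 and 13.9 FPKM in PQQ-L 1 to 5, and 12.9, 30.2, 8.67 and 12.1 FPKM in PQQ-H 1 to 4. All PQQ-L libraries were below CON, while PQQ-H 2 reached the level of CON 2. The log2FC was -1.84 (SE 0.37, adjusted p = 0.0537) in PQQ-L and -1.84 (SE 0.39, adjusted p = 0.0484) in PQQ-H with limma. These values sit at the threshold, and the adjusted p was below 0.05 in 10 of 32 alternatives in PQQ-L (9.81e-05 to 1) and in 8 of 33 in PQQ-H (0.000295 to 1). The call in PQQ-H was lost without CON 1 (adjusted p = 0.175) or CON 3 (adjusted p = 0.223), without any single PQQ-L library, and without PQQ-H 1, 3 or 4. PQQ-H 2 also held the most red blood cell (600.3 FPKM) and microglia (578 FPKM) marker RNA of the 12 libraries, and their part in this value was not tested.
Ifitm2 measured 9.61, 5.38 and 11.5 FPKM in CON 1 to 3, 4.15, 3.63, 4.17, 3.31 and 3.66 FPKM in PQQ-L 1 to 5, and 4.76, 6.48, 3.29 and 3.41 FPKM in PQQ-H 1 to 4. Again PQQ-L lay below all CON libraries and PQQ-H 2 lay above CON 2. The log2FC was -1.14 (adjusted p = 0.0865) in PQQ-L and -0.95 (adjusted p = 0.176) in PQQ-H with limma.

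**Figure D4:**
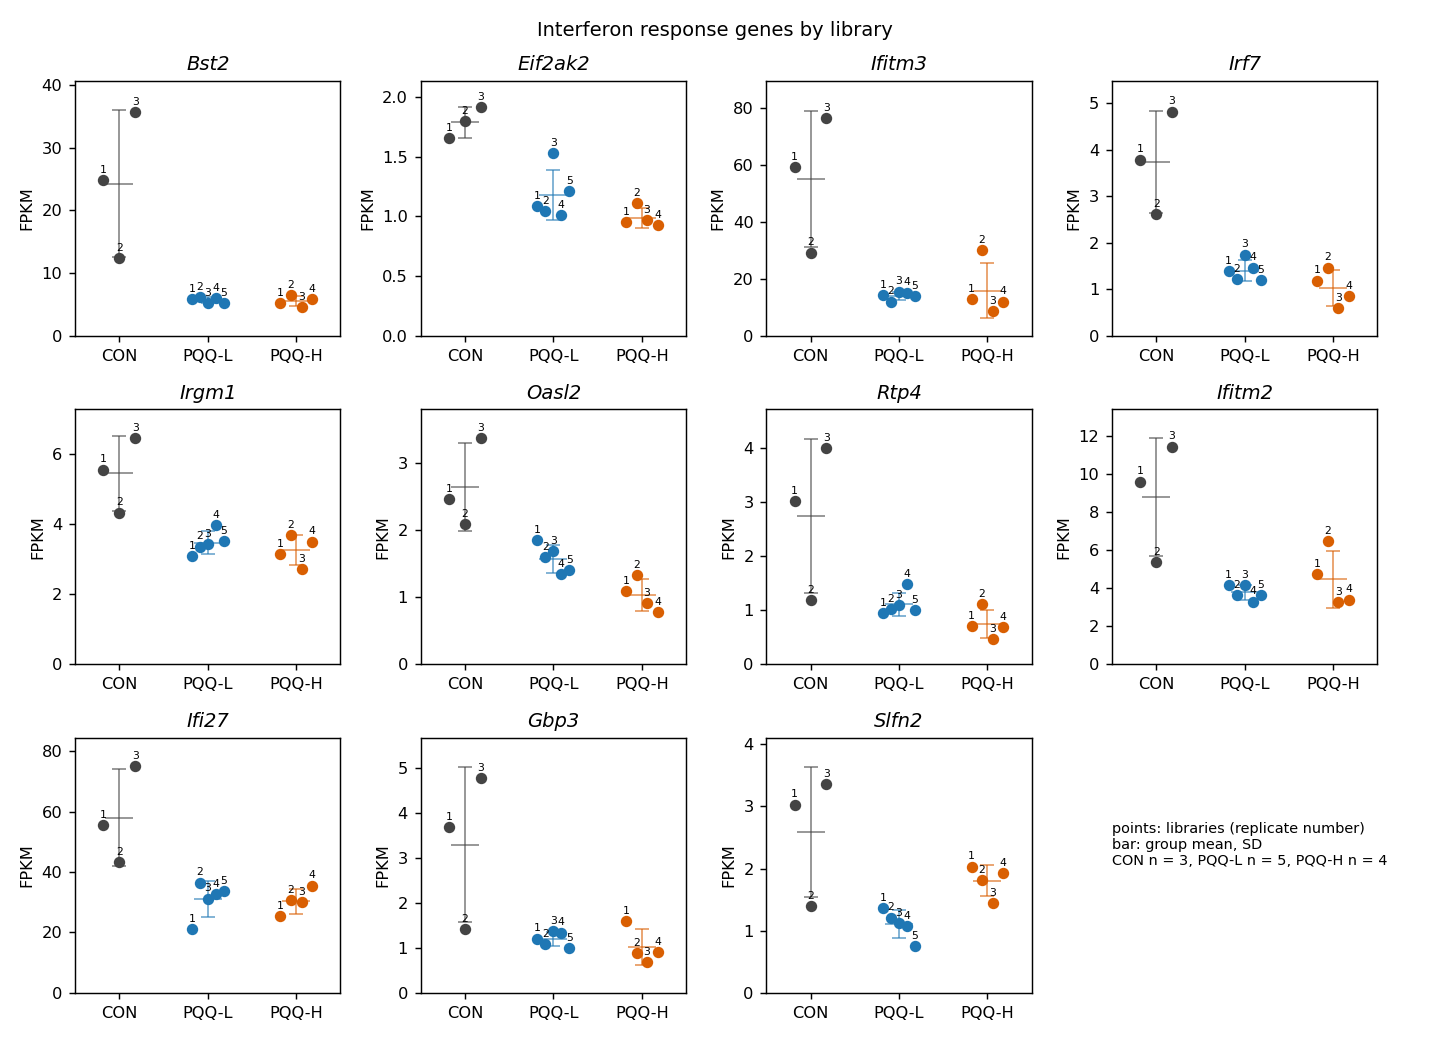
FPKM of 11 interferon response genes in every library (points with replicate number), with the group mean and SD (CON n = 3, PQQ-L n = 5, PQQ-H n = 4), from an axis that starts at 0. Bst2, Irf7, Oasl2, Eif2ak2, Irgm1 and Ifi27 show all CON libraries above all PQQ libraries. CON 2 is within the PQQ range for Ifitm3, Ifitm2, Rtp4, Gbp3 and Slfn2.

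Of the double-stranded RNA enzymes, Oasl2 and Eif2ak2 passed the adjusted test in PQQ-H. Oasl2 belongs to the family of oligoadenylate synthetases, which sense double-stranded RNA. Oasl2 measured 2.46, 2.09 and 3.37 FPKM in CON 1 to 3, 1.85, 1.60, 1.68, 1.34 and 1.40 FPKM in PQQ-L 1 to 5, and 1.09, 1.33, 0.914 and 0.783 FPKM in PQQ-H 1 to 4. The levels did not overlap between CON and either dose, and each PQQ-H library was below each PQQ-L library. The log2FC was -0.69 (SE 0.19, adjusted p = 0.165) in PQQ-L and -1.28 (SE 0.20, adjusted p = 0.00971) in PQQ-H with limma. Without CON 3 the call in PQQ-H was lost (log2FC -1.09, adjusted p = 0.0592), and the adjusted p was below 0.05 in 25 of 33 alternatives (0.000253 to 1).
Eif2ak2 encodes PKR, a kinase that halts translation on binding double-stranded RNA. It measured 1.66, 1.80 and 1.91 FPKM in CON 1 to 3, 1.09, 1.05, 1.53, 1.01 and 1.21 FPKM in PQQ-L 1 to 5, and 0.952, 1.11, 0.972 and 0.926 FPKM in PQQ-H 1 to 4. Here the CON libraries were alike, and CON 2 was not the lowest of them. The log2FC was -0.58 (SE 0.14, adjusted p = 0.120) in PQQ-L and -0.79 (SE 0.15, adjusted p = 0.0298) in PQQ-H with limma, and the latter was below 0.05 in 15 of 33 alternatives (0.00291 to 1). Oas1a and Oas2, further oligoadenylate synthetases, were under the level for testing. Oas1a covered 0.433 to 1.41 FPKM in CON, 0.0876 to 0.286 in PQQ-L and 0.0729 to 0.919 in PQQ-H, where the highest PQQ-H value was again in PQQ-H 2. Oas2 covered 0.0414 to 0.345, 0.109 to 0.273 and 0.0627 to 0.310 FPKM, with full overlap.

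Of the interferon-induced GTPases, which attack the vacuoles of intracellular pathogens, Irgm1 alone passed the adjusted test. Irgm1, a regulator of the other immunity-related GTPases, measured 5.54, 4.32 and 6.45 FPKM in CON 1 to 3, 3.08, 3.35, 3.43, 3.97 and 3.52 FPKM in PQQ-L 1 to 5, and 3.15, 3.69, 2.71 and 3.49 FPKM in PQQ-H 1 to 4. CON was above PQQ throughout. The log2FC was -0.62 (SE 0.14, adjusted p = 0.0881) in PQQ-L and -0.71 (SE 0.15, adjusted p = 0.0457) in PQQ-H with limma, and the latter was below 0.05 in 10 of 33 alternatives (0.0018 to 1).
Gbp3, a guanylate-binding protein, measured 3.70, 1.41 and 4.79 FPKM in CON 1 to 3, 1.21, 1.08, 1.37, 1.34 and 1.01 FPKM in PQQ-L 1 to 5, and 1.59, 0.894, 0.680 and 0.903 FPKM in PQQ-H 1 to 4. CON 2 lay with the PQQ libraries, and CON 1 and CON 3 stood above them. The log2FC was -1.23 (adjusted p = 0.167) in PQQ-L and -1.50 (adjusted p = 0.0936) in PQQ-H with limma. Igtp, Irgm2 and Iigp1 were above all PQQ-L libraries in CON, with CON ranges of 2.80 to 5.36, 1.48 to 2.90 and 0.789 to 1.05 FPKM and PQQ-L ranges of 0.840 to 2.39, 0.892 to 1.46 and 0.393 to 0.776 FPKM. In PQQ-H they covered 1.01 to 3.01, 0.873 to 1.72 and 0.212 to 0.692 FPKM, so that PQQ-H 2 lay above CON 2 for Igtp and Irgm2 while Iigp1 did not overlap. Gbp2 covered 1.61 to 3.03 FPKM in CON, 1.20 to 1.53 in PQQ-L and 0.971 to 3.26 in PQQ-H. Gbp7 did not separate the groups, with 0.670 ± 0.0647 FPKM in CON (SD, n = 3), 0.717 ± 0.109 in PQQ-L (n = 5) and 0.616 ± 0.191 in PQQ-H (n = 4).

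Tgtp1 and Tgtp2, near-identical genes named T-cell-specific GTPases, were under the level for testing. Reads shared by both could be split or lost in the counting. Tgtp1 measured 1.23, 0.612 and 1.74 FPKM in CON 1 to 3, 0.287, 0.214, 0.139, 0.435 and 0.104 FPKM in PQQ-L 1 to 5, and 0.142, 0.176, 0.0809 and 0.0729 FPKM in PQQ-H 1 to 4. Tgtp2 covered 0.395 to 0.670 FPKM in CON, 0.162 to 0.327 in PQQ-L and 0.0707 to 0.318 in PQQ-H. All CON libraries were above all PQQ libraries for both genes, on 7 to 164 reads for Tgtp1 and 7 to 67 for Tgtp2. When all genes above 0 were tested, the log2FC of Tgtp1 was -1.93 (adjusted p = 0.0513) in PQQ-L and -2.50 (adjusted p = 0.0125) in PQQ-H with limma. That filter was an alternative, and no call is made from it here.

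The ISG15 system, the IFIT family and the nucleic acid sensors held no member with an adjusted p below 0.05. ISG15 is a ubiquitin-like protein, and USP18 removes it from its targets and dampens interferon signaling. Isg15 covered 2.19 to 6.70 FPKM in CON, 2.13 to 2.66 in PQQ-L and 1.31 to 6.49 in PQQ-H, where CON 2 (2.19 FPKM) lay within the PQQ-L range and PQQ-H 2 (6.49 FPKM) lay between CON 1 and CON 3. Usp18 covered 0.800 to 3.73, 0.546 to 0.946 and 0.363 to 0.931 FPKM, and CON 2 lay among the PQQ libraries. Ifit1, Ifit2 and Ifit3, which bind foreign RNA and block its translation, measured 1.84 ± 0.307, 2.86 ± 0.656 and 5.87 ± 1.84 FPKM in CON (SD, n = 3), 1.47 ± 0.197, 2.73 ± 0.280 and 3.80 ± 0.426 in PQQ-L (n = 5), and 0.997 ± 0.313, 2.16 ± 0.484 and 3.87 ± 1.30 in PQQ-H (n = 4). Ifit1 in PQQ-H did not overlap with CON. Ifih1, or MDA5, a sensor of long double-stranded RNA, measured 1.18 ± 0.213 FPKM in CON, 0.901 ± 0.137 in PQQ-L and 0.721 ± 0.156 in PQQ-H, and PQQ-H did not overlap with CON. Dhx58 and Zbp1 were under the level for testing. Dhx58 covered 0.286 to 0.658, 0.327 to 0.698 and 0.286 to 0.528 FPKM in CON, PQQ-L and PQQ-H. Zbp1, a sensor of Z-form nucleic acids, covered 0.0936 to 0.939, 0.0643 to 0.197 and 0.0135 to 0.0658 FPKM, on 1 to 68 reads. The table has a row named Rigi, a present name of Ddx58, which covered 1.04 to 1.85 FPKM in CON, 0.929 to 1.13 in PQQ-L and 0.734 to 1.05 in PQQ-H. It was not counted as a member.

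Among the other interferon-induced genes, none passed the adjusted test and 6 of 6 tested were lower at both doses. Rtp4, a chaperone of receptors that is induced by type I interferon, measured 3.01, 1.19 and 4.00 FPKM in CON 1 to 3, 0.953, 1.02, 1.10, 1.48 and 0.995 FPKM in PQQ-L 1 to 5, and 0.705, 1.11, 0.472 and 0.695 FPKM in PQQ-H 1 to 4. PQQ-L 4 lay above CON 2, and all PQQ-H libraries lay below it. The log2FC was -1.09 (adjusted p = 0.193) in PQQ-L and -1.64 (adjusted p = 0.0586) in PQQ-H with limma.
Ifi27, a small mitochondrial protein with the highest mean level of the group, measured 55.5, 43.2 and 75.2 FPKM in CON 1 to 3, 21.1, 36.5, 31.2, 32.6 and 33.6 FPKM in PQQ-L 1 to 5, and 25.3, 30.7, 29.9 and 35.5 FPKM in PQQ-H 1 to 4. CON 2 also lay above all PQQ libraries. The log2FC was -0.89 (adjusted p = 0.0872) in PQQ-L and -0.90 (adjusted p = 0.0808) in PQQ-H with limma.
Slfn2, a Schlafen family gene of immune cells, measured 3.03, 1.40 and 3.36 FPKM in CON 1 to 3, 1.37, 1.21, 1.12, 1.08 and 0.757 FPKM in PQQ-L 1 to 5, and 2.03, 1.82, 1.45 and 1.93 FPKM in PQQ-H 1 to 4. All PQQ-H libraries were above all PQQ-L libraries and above CON 2. The log2FC was -1.09 (adjusted p = 0.107) in PQQ-L and -0.42 (adjusted p = 0.699) in PQQ-H with limma.
Xaf1, which promotes apoptosis, covered 1.03 to 2.56 FPKM in CON, 0.609 to 1.04 in PQQ-L and 0.776 to 1.91 in PQQ-H. Ifi35 covered 1.88 to 4.65, 1.31 to 2.12 and 1.52 to 2.38 FPKM, and Trim30a covered 0.581 to 1.26, 0.567 to 0.800 and 0.468 to 0.881 FPKM. The groups of these 3 genes overlapped. Ifi44, Parp14 and Rsad2 were under the level for testing, and none was at 0 in a library. Rsad2 encodes viperin, an antiviral enzyme, and covered 0.401 to 0.678 FPKM in CON, 0.285 to 0.627 in PQQ-L and 0.193 to 0.938 in PQQ-H. Ifi44 covered 0.0929 to 0.496, 0.145 to 0.284 and 0.0786 to 0.437 FPKM, and Parp14, an ADP-ribosyltransferase, covered 0.401 to 0.675, 0.345 to 0.450 and 0.288 to 0.442 FPKM. Each of these 3 overlapped between groups.

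**Figure D5:**
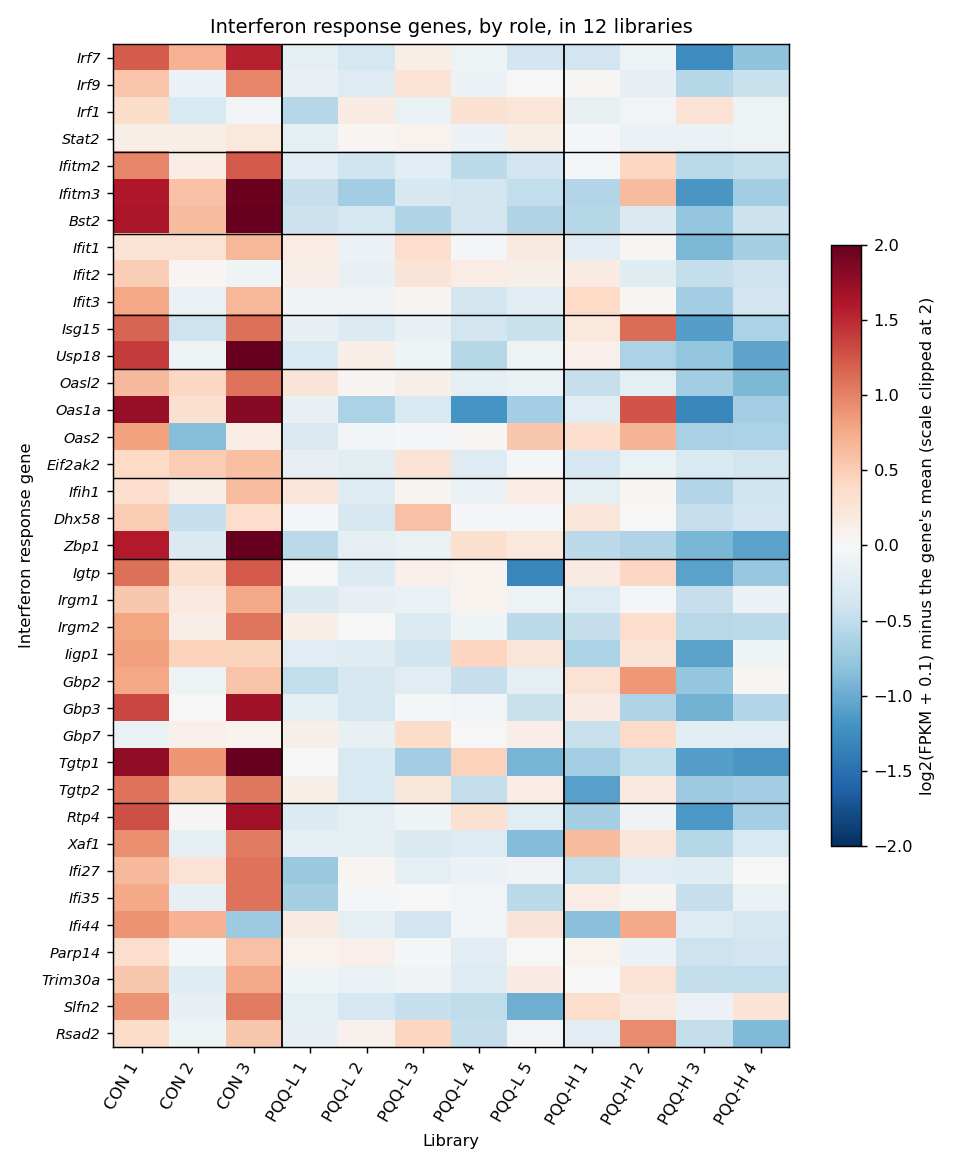
log2(FPKM + 0.1) of the 37 interferon response genes minus each gene's mean, in the 12 libraries, ordered by role (horizontal lines) and group (vertical lines), with the color scale clipped at 2. CON 1 and CON 3 hold the highest value of 33 of 37 genes, and PQQ-H 3 and PQQ-H 4 hold the lowest of 25.

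The doses were compared with each other in the PQQ libraries, which also differed in tissue content. Choroid plexus markers were below CON in all of them but still lower in PQQ-H, in 18 of 19 markers (median log2FC -0.99) and without overlap of their sums. Ependyma markers were lower in 8 of 8 (median -1.20) and meninges and fibroblast markers in 14 of 15 (median -0.92), with 0 called in any of the 3 lists and 9, 6 and 6 lower at an unadjusted p below 0.05. In PQQ-H vs. PQQ-L, 21 of 28 members were lower, the median log2FC was -0.10 against -0.02 over all genes, and 0 members were called, as were 0% of all tested genes. At an unadjusted p below 0.05, Oasl2 (log2FC -0.58, 95% interval -0.97 to -0.20) and Ifit1 (-0.55, -0.97 to -0.14) were lower, where 4.60% of all genes were. Slfn2 was higher (0.67, 0.14 to 1.20), where 3.55% of all genes were. The adjusted p was 0.580 for each of these 3 with limma, and it lay between 0.221 and 1 over their alternatives. For Bst2 the difference between doses was -0.05 (-0.57 to 0.47) and for Irf7 it was -0.47 (-0.99 to 0.06). PQQ-H 1 and PQQ-H 2 stood high in striatal markers and no PQQ-L library did, so this comparison also spans that difference. With the striatal score as a covariate, 25 of 28 members were lower (median log2FC -0.35) and 10 were lower at an unadjusted p below 0.05, where 7.05% of all genes were. Among the 8 libraries low in striatal markers, which keep PQQ-H 3 and 4, 25 of 28 were lower (median -0.41) and 13 passed that p, where 8.75% of all genes did. Without PQQ-H 2 the median was -0.26. With the choroid plexus score as a covariate it was 0.21, and 10 of 28 were lower. In each of these fits 0 members and 0 of all genes were called.

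The upstream parts of the pathway were listed separately, as 146 further genes of which 123 were in the table and 71 were tested. Of 21 interferon genes, 3 had a row under the listed names and none reached the level for testing, with Ifng at no more than 0.0247 FPKM. Among the receptors, Ifnar1 measured 5.93 ± 0.473 FPKM in CON (SD, n = 3), 6.33 ± 0.227 in PQQ-L (n = 5) and 5.73 ± 0.269 in PQQ-H (n = 4), and Ifnar2 measured 3.25 ± 0.182, 2.66 ± 0.201 and 2.82 ± 0.307. Both form the receptor of type I interferons. Ifngr1 measured 11.6 ± 2.35, 8.87 ± 1.16 and 10.6 ± 3.04 FPKM, and Ifngr2 measured 19.5 ± 9.41, 27.7 ± 3.93 and 23.3 ± 10.1 FPKM. The 4 libraries high in striatal markers held the 4 lowest values of Ifngr2. None of these 4 receptor genes passed the adjusted test at either dose.

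Of the 71 further genes tested, 50 were lower in PQQ-L (median log2FC -0.25) and 53 in PQQ-H (median -0.16). Of all 13796 genes tested, 7430 and 7670 were lower, with a median of -0.03 at both doses. Ifi27l2a was called at both doses (0.471% and 0.819% of all genes, lower) and was the only 1 of the 71 called. At an unadjusted p below 0.05, PQQ-L had 17 of the 71 lower and 3 higher. Over all genes these shares were 11.6% and 8.92%. PQQ-H had 14 lower and 0 higher, against 7.88% and 1.85% of all genes. By list, 2 of 5 receptors, 1 of 9 JAK kinases and STAT and IRF factors, 1 of 14 genes of nucleic acid sensing, 1 of 9 negative regulators and 12 of 34 further interferon-induced genes were lower at that p in PQQ-L. In PQQ-H these counts were 1, 1, 2, 0 and 10. The lists of factors, sensing and negative regulators thus lay near the shares over all genes. Ifi27l2a, a neighbor of Ifi27 by family, measured 10.4, 4.51 and 15.3 FPKM in CON 1 to 3, 1.29, 1.04, 1.80, 1.58 and 1.86 FPKM in PQQ-L 1 to 5, and 0.902, 2.55, 0.675 and 1.62 FPKM in PQQ-H 1 to 4. All CON libraries were above all PQQ libraries, with CON 2 the lowest of them. The log2FC was -2.52 (SE 0.43, adjusted p = 0.0250) in PQQ-L and -2.73 (SE 0.45, adjusted p = 0.0146) in PQQ-H with limma. The count of these genes called was 0 in PQQ-L without CON 1 or CON 3 or without PQQ-L 1, 2, 4 or 5. It was 6 without CON 2, where 3.12% of all genes were called lower, and 2 without PQQ-H 2 or PQQ-H 3. In PQQ-H it was 0 without CON 1 or CON 3.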

How the data were processed

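The deposited values are the authors' FPKM, in 1 table with 27833 genes and 12 libraries. Per the study's methods, reads were filtered with fastp, mapped with HISAT2 and counted with HTSeq-count, and the submitters' processing notes name the build mm39. The annotation, strandedness and versions are not given in the sources used here, and without strand a gene and its antisense partner cannot be told apart. The authors' DESeq2 step was not repeated. FPKM divides by the library total, so a large rise of a few genes lowers all others.

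Ratios of FPKM between libraries gave back the whole reads of each gene (tolerance 0.02 reads) for 100% of 25563 genes above 0 in 2 or more libraries. Over 19 pairs of libraries within groups, chi-square per degree of freedom was at least 17.42, so no pair agreed within sampling noise. Differences were tested with limma 3.58.1 (R 4.3.3, empirical Bayes with trend) on log2(FPKM + 0.1) in 1 fit of 12 libraries over the 13796 genes whose mean FPKM reached 0.5, with Benjamini-Hochberg adjustment over all of them. The fit and the recovery were tested on simulated data. Values, motifs and figures used Python 3.11.15, pandas 2.3.3, numpy 2.4.6 and matplotlib 3.10.9. Alternatives were a pseudocount of 1 or 0.01, other filters, median-of-ratios, TPM or quantile scaling, only 2 groups, no trend, a robust fit, array weights, covariates, voom on the recovered reads (genes averaging 10 or more) and each library left out.

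The members and lists were chosen with earlier results of these data known. All members are accounted for. Values in every library are given for members with an adjusted p below 0.05 and for the 5 others with the smallest unadjusted p vs. CON, and Tgtp1 was added after its values were seen. Of the further pathway genes, those with an adjusted p below 0.05 and 4 fixed receptor genes were named, and 1 further gene fixed for naming is not reported here.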

Additional observations from a re-analysis of the deposited data

Results flagged for a closer look

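In 4 of 74 combinations of member and PQQ group, 1 library stood apart from the others of its group by Dixon's test, and chance alone marks about 1 in 20. Dhx58 was high in PQQ-L 3 (0.698 FPKM) and Rtp4 was high in PQQ-L 4 (1.48 FPKM). Xaf1 was low in PQQ-L 5 (0.609 FPKM). Irgm2 was high in PQQ-H 2 (1.72 FPKM), the library that also held the highest Ifitm3, Isg15, Gbp2 and Rsad2 of the PQQ libraries. The CON group of 3 was too small for this test.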

How the results depend on the processing

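Main counts were 1 and 4 members and 1 and 1 pathway genes called in PQQ-L and PQQ-H vs. CON, and 0 members in PQQ-H vs. PQQ-L, where no alternative gave a call. For members in PQQ-L, the count was 2 with a pseudocount of 1, TPM or the endothelium score, 3 with quantile scaling or only 2 groups, 4 with voom and 0 with the choroid plexus score or among the libraries low in striatal markers. For members in PQQ-H, the count was 0 with only 2 groups or with the choroid plexus or meninges score. It was 1 with array weights or among libraries high in striatal markers. It rose to 5 with TPM (0.848% of all genes called lower), 6 of 37 tested with voom (0.947%) and 7 with the striatal score. Pathway genes in PQQ-L numbered 3 of 123 tested with all genes above 0 (0.405% of all genes called lower). They numbered 2 with only 2 groups and 4 of 97 tested with voom. They numbered 0 with array weights, the library name's first letter, or the choroid plexus, meninges or striatal score. Those in PQQ-H numbered 2 of 123 tested with all genes above 0 (0.611%) and 2 of 97 tested with voom (0.947%). They numbered 0 with only 2 groups, array weights, the choroid plexus or meninges score or the libraries high in striatal markers. The share of all genes called lower also moved, in PQQ-L to 0.732% with voom and 0% with the choroid plexus score. In PQQ-H it moved to 0.319% with only 2 groups, 0.225% with array weights and 0.0580% with the meninges score. With the striatal score it was 0.971% in PQQ-H. The cause of these changes was not tested.

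Array weights by limma's default method did not converge and gave CON 3 the lowest weight (0.126). A gene-by-gene estimate, added after the data were seen, gave CON 3 the highest (3.94), and with it 14 and 17 members and 7 and 8 pathway genes were called, as were 4.08% and 2.69% of all genes, lower. The subsets by striatal markers were likewise chosen after the data were seen. Leaving out 1 library gave 0 to 15 and 1 to 10 members, 0 to 6 and 0 to 1 pathway genes, and 0 to 0 members between doses. In the subset with 1 CON library, its spread was taken from the other groups.

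The replicate number as a block gave 0 members and 0 pathway genes called at either dose, where 0.167% and 0.348% of all genes were called lower. Same-numbered libraries correlated at -0.619 to 0.717 in their deviations over 10 pairs, so the numbers were not taken to pair the libraries.

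The fold changes vs. CON of the 11 members tested by name were refitted, as were those of Oasl2, Ifit1 and Slfn2 between doses. Of these 811 refits 17 reversed, 16 of them with the choroid plexus score. That fit cannot tell choroid plexus content from treatment, and its SEs were large (for Bst2 0.73 in PQQ-L and 0.93 in PQQ-H). In it, log2FC values in PQQ-L became 0.026 for Eif2ak2, 0.13 for Ifitm3, 0.29 for Irf7 (0.285) and 0.58 for Oasl2. They also became 0.76 for Rtp4, 0.40 for Ifitm2, 0.81 for Gbp3 and 0.43 for Slfn2. In PQQ-H they became 0.00 for Bst2 (0.0016), 0.72 for Ifitm3, 0.29 for Irf7, 0.38 for Oasl2, 0.75 for Rtp4, 1.04 for Ifitm2, 1.15 for Gbp3 and 1.55 for Slfn2. Slfn2 also reversed to 0.24 in PQQ-H among libraries low in striatal markers. A further 708 kept their side of the threshold, 47 lost a call and 39 gained one. Depth limits the members at 1 to 92 reads in a library, such as Zbp1, Oas1a and Oas2.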
